A study of Mus musculus with 10 samples.

Results

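The late response of the distal colorectum to local irradiation was examined in mice that lack Pdgfc, the gene for platelet-derived growth factor C (PDGF-C). The comparison set 3 arrays from irradiated Pdgfc-/- mice against 2 arrays from unirradiated Pdgfc-/- mice, chosen by the genotype and treatment that the array titles give. These 5 arrays belong to a series of 10, and the other 5 are wild-type (Pdgfc+/+) arrays, 2 of unirradiated and 3 of irradiated mice. All mice were of the C57BL/6J strain. A local γ-ray dose of 25 Gy had been delivered at 2.14 Gy/min to the irradiated mice under chloral hydrate anaesthesia. Colorectum was taken about 1 cm above the anus 8 weeks later, from irradiated and control mice alike, and total RNA was measured on Affymetrix arrays. The labels call the arrays of a group biological replicates and give no age, sex or hour of tissue collection. Both knockout groups carry Pdgfc-/-, and the labels do not describe the deleted part of the gene, so the comparison shows a response without intact Pdgfc rather than an effect of Pdgfc. Each of 18193 genes was represented by its brightest probe set, and the 12568 (69.1%) that exceeded the median of their array in 2 or more samples were tested.

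The distal colon is lined by a simple epithelium of absorptive colonocytes, mucus-filled goblet cells and hormone-secreting cells, all renewed from stem cells at the base of the crypts. At the anus it meets a stratified squamous epithelium built on basal keratinocytes. Bowel that has received high-dose radiation is known for late fibrosis, vessel injury, inflammation and abnormal healing of the epithelium. PDGF-C is a secreted ligand that is activated by proteolysis and signals through PDGF receptor alpha, a receptor of fibroblasts.

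The 5 knockout arrays had medians between 6.80 and 7.18 on the log2 scale of the deposited signals. The 3 irradiated arrays correlated with each other at 0.93 to 0.96 over the genes and the unirradiated pair at 0.97, whereas irradiated replicates 1 and 3 correlated with the unirradiated arrays at 0.75 to 0.78 and irradiated replicate 2 at 0.85 to 0.86. The tissue label fitted these markers of gut epithelium and gut muscle. Epcam, an adhesion molecule of gut epithelium, read 14.19 to 14.73 and Acta2, the smooth muscle actin, read 14.61 to 14.76 on the 5 arrays. Genes of other tissue differed between the groups. Skeletal muscle genes averaged 8.49 and 7.93 without and 10.75, 10.01 and 11.47 with irradiation. Stratified keratins averaged 5.59 and 4.91 against 11.20, 9.59 and 10.70. Whether the arrays sampled comparable stretches of tissue was not tested. Irradiated replicate 1 carried a female transcript pattern, with Xist at 13.48 against 6.5 to 7.27 on the other knockout arrays and a mean of Y-linked genes of 2.20 against 9.39 to 9.88. The difference between the 3′ and 5′ probe sets of Gapdh, a measure of RNA integrity, was -0.47 to -0.35 on the irradiated and -0.23 and -0.22 on the unirradiated knockout arrays. Its part in the results was not tested. Pdgfc itself read 6.42 and 5.62 without and 7.15, 6.26 and 7.10 with irradiation, levels close to the array median. On this probe set, which stood for the gene, the groups overlapped, and the change of 0.82 ± 0.36 was not called (adjusted p = 0.128). Its knockout means, 6.02 and 6.84, lay below the wild-type means of 7.25 and 8.66. On the other Pdgfc probe set the knockout groups did not overlap, at 5.4 to 6.06 without and 6.18 to 6.58 with irradiation. Its knockout means of 5.73 and 6.4 also lay below the wild-type means of 7.65 and 8.79. Whether either probe set reads the bases that were removed cannot be told from the labels. In all that follows, values are log2 signals in the order of unirradiated replicates 1 and 2 and irradiated replicates 1, 2 and 3, and a change is the irradiated minus the unirradiated mean in log2 units with its standard error from limma (n = 3 against 2 arrays). A gene was called where its adjusted p lay under 0.05.

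Between the irradiated and the unirradiated knockout arrays 2957 of the 12568 genes differed, 23.5% of those tested. Of these, 1763 genes (14%) were higher and 1194 (9.5%) lower in the irradiated knockout, and the median change over all genes tested was 0.01. All 2957 called genes separated the groups, as did 28.4% of tested genes in the higher and 25.6% in the lower direction. Rises were larger than falls: 689 rises and 57 falls passed 4-fold, and 385 rises and 9 falls passed 8-fold. Many rises started from dim levels: 722 of the risen genes (41%) had an unirradiated mean below 6.95, the mean array median, where the size of a fold change is uncertain. Among genes above that level in both groups, 164 rises and 39 falls passed 4-fold. The counts rested on few arrays: 1189 genes were called without unirradiated replicate 1, 1292 without unirradiated replicate 2, 1699 without irradiated replicate 1 and 1890 without irradiated replicate 3. Without irradiated replicate 1, the array with the female pattern, 1671 of the 2957 genes were still called in the same direction.

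**Figure D1:**
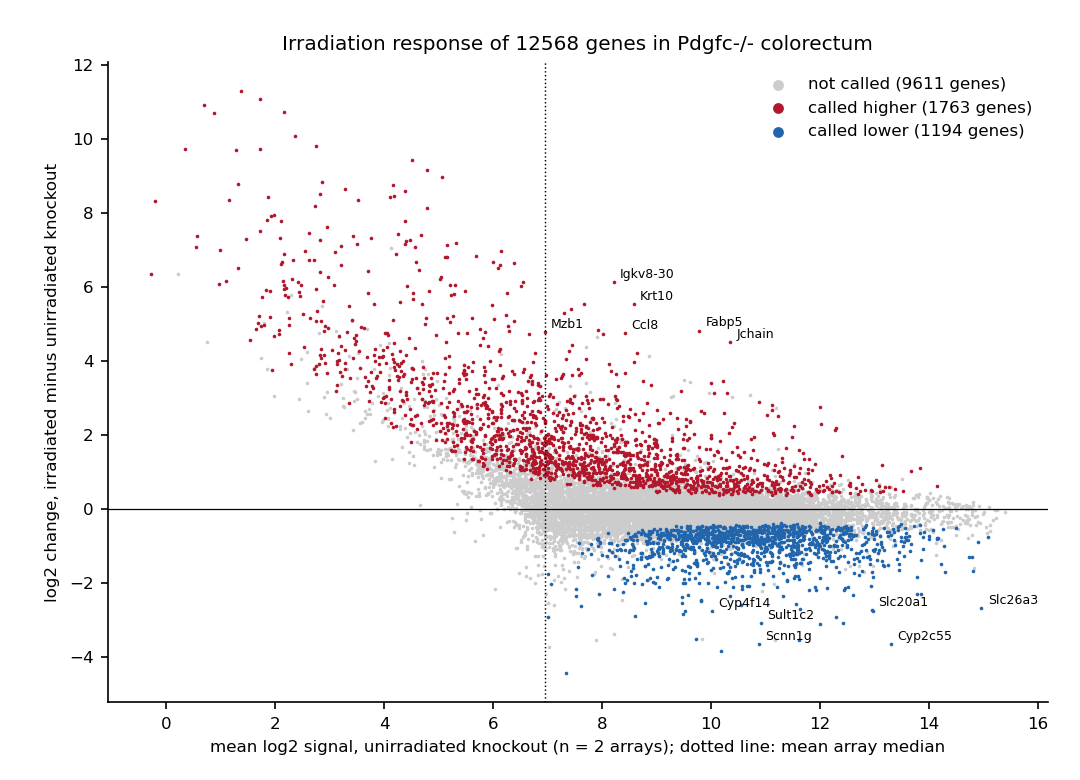
Change after irradiation (y axis, log2 units) against the mean log2 signal on the 2 unirradiated knockout arrays (x axis) for the 12568 genes tested, with the 1763 genes called higher in red, the 1194 called lower in blue and the rest in grey. The largest rises lie left of the dotted line at 6.95, the mean array median, whereas nearly all falls lie right of it.

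Among genes measured above 6.95 in both groups, the largest rises belonged to antibody chains, keratinocyte genes and an interferon-induced GTPase. Igkv8-30, an immunoglobulin light chain segment, read 7.33 and 9.08 without and 14.32, 14.05 and 14.65 with irradiation, and Iglv1, another, rose by 5.56 ± 0.73. The irradiated arrays were alike for Igkv8-30 and over 4 units above both unirradiated arrays, which differed from each other. Its change was 6.13 ± 0.41 (adjusted p = 7.3e-05), although segments of this family are near-identical and a probe set can read several of them. Fabp5, a fatty acid carrier of keratinocytes, read 9.40 and 10.17 without and 14.86, 14.22 and 14.77 with irradiation and rose by 4.83 ± 0.39 (adjusted p = 1.2e-04). Fam25c rose by 5.40 ± 0.95 and Krt10, the keratin of differentiating epidermis, by 5.55 ± 1.31. Lor, which encodes the cornified envelope protein loricrin, rose by 5.31 ± 1.28. The calls of Krt10 and Lor were lost without unirradiated replicate 1 or 2, and that of Lor also without irradiated replicate 1.

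The smallest adjusted p in the comparison belonged to Ccl8, a chemokine that attracts monocytes, eosinophils and other leukocytes. Ccl8 read 8.43 and 8.41 without and 13.38, 13.03 and 13.13 with irradiation, so that each group lay within a narrow band and the bands were over 4 units apart. Its change was 4.76 ± 0.13 (adjusted p = 1.3e-07). Hal, the histidine-degrading enzyme histidase of skin and liver, went from 1.94 and 1.78 to 9.12, 10.29 and 9.66 and rose by 7.83 ± 0.38 (adjusted p = 1.0e-05), from a level far below the array median. Cxcl12, a chemokine of stromal cells, rose by 2.47 ± 0.16, and Fcgr3, an Fc receptor of myeloid cells, by 3.64 ± 0.23 (adjusted p = 6.2e-05 for each).

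The largest well-measured falls were in genes of the absorptive colonocyte and in a clock output gene. Cyp2c55, a colonic cytochrome P450, read 13.37 and 13.24 without and 10.44, 9.70 and 8.84 with irradiation, which put all irradiated arrays at least 2.8 units below both unirradiated arrays. It fell by 3.64 ± 0.51 (adjusted p = 0.0014). Tfcp2l1, an epithelial transcription factor, fell by 2.76 ± 0.36, Tns4, a focal adhesion protein, by 3.10 ± 0.32 and Slc20a1, a phosphate transporter, by 2.72 ± 0.18 (adjusted p = 7.3e-05 for Slc20a1, the smallest among falls). Slc20a1 read 12.66 and 13.24 without and 10.20, 10.44 and 10.06 with irradiation. The other falls with the smallest p were also tight between arrays. Cipc, a repressor of the CLOCK protein, fell by 2.12 ± 0.18, Fkbp5, a glucocorticoid-induced chaperone, by 2.18 ± 0.20 and Plekhh1 by 1.55 ± 0.14. Gcnt1, a branching enzyme of mucin-type glycans, fell by 2.69 ± 0.77, but irradiated replicate 2 (7.02) stood apart from replicates 1 and 3 (9.90 and 9.94), its change was -1.72 without that array and its call was lost without unirradiated replicate 1 or 2. The call of Cyp4f14, a further cytochrome P450 that fell by 2.76 ± 0.67, was lost without unirradiated replicate 2, irradiated replicate 1 or irradiated replicate 3.

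**Figure D2:**
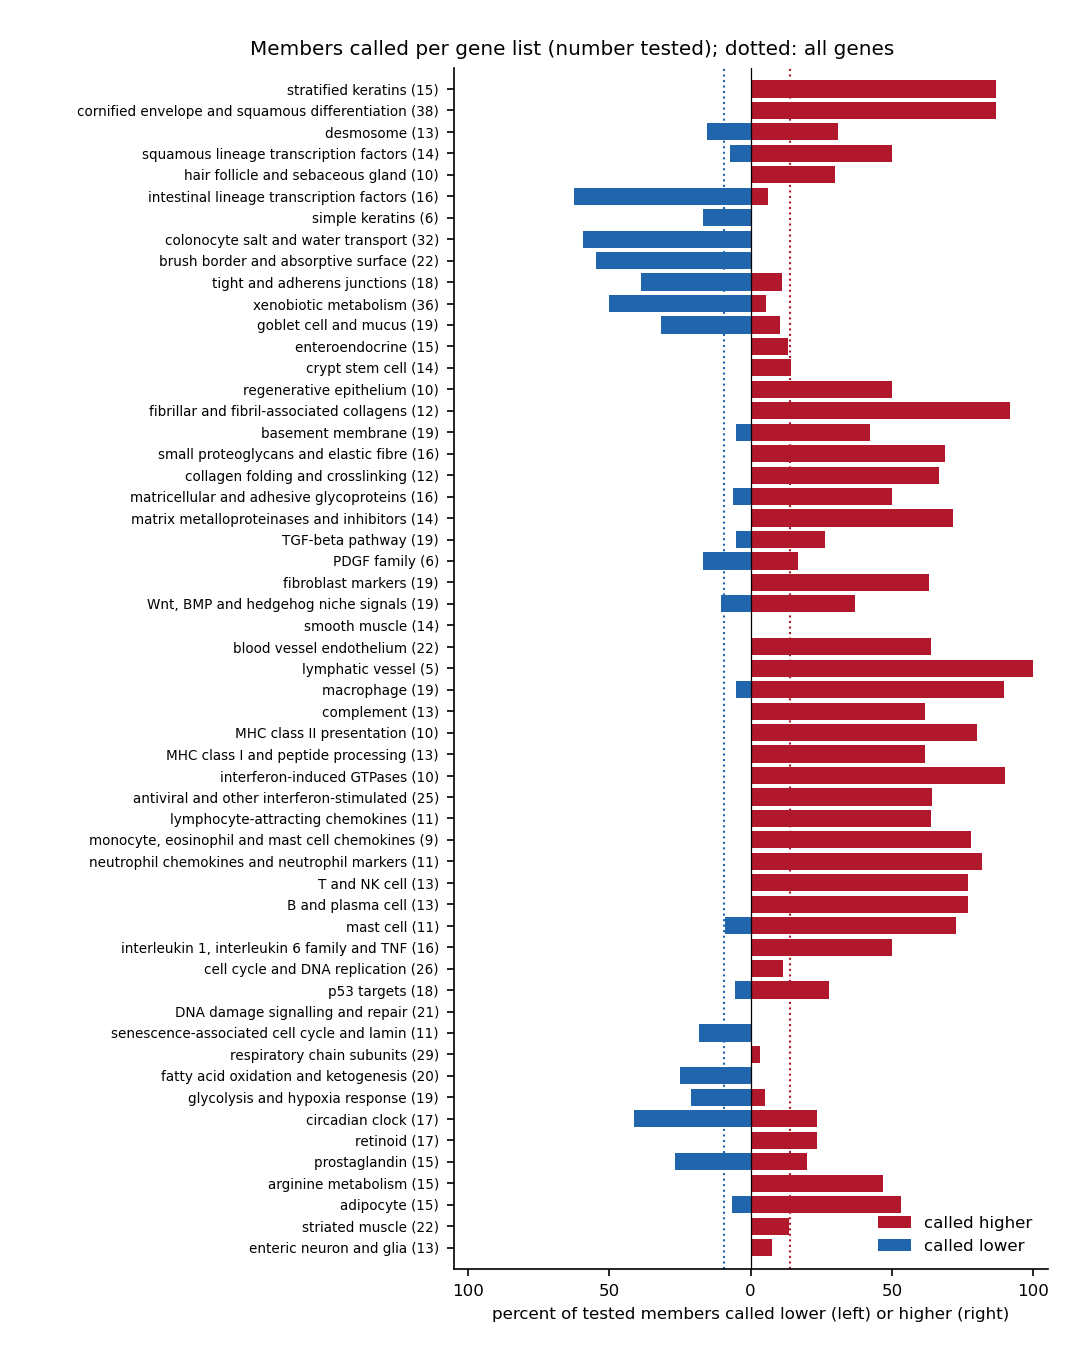
Percent of the tested members of each gene list that were called higher (red, to the right) or lower (blue, to the left) after irradiation in the knockout, with the number tested in brackets and dotted lines at the shares over all genes, 14% higher and 9.5% lower. Squamous, matrix, vessel and immune lists extend to the right, colonocyte, brush border and xenobiotic lists to the left, and smooth muscle and DNA repair lists have no bar.

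Genes of stratified squamous epithelium rose together in the irradiated knockout. Of 90 tested genes in 5 lists of squamous and skin genes, 60 rose and 3 fell, beside 14% and 9.5% of all genes. Among stratified keratins, the filament proteins of keratinocytes, 13 of 15 rose and none fell, with a median change of 5.55. Krt13, a keratin of internal squamous lining, read 3.24 and 3.31 without and 13.09, 10.77 and 11.90 with irradiation, and Krt6a, a keratin of wounded and hyperproliferative epithelium, went from 6.37 and 5.86 to 13.83, 11.86 and 12.44. Both genes were below the array median on both unirradiated arrays and bright on all irradiated arrays, with replicate 2 the lowest of these. Krt13 rose by 8.65 ± 0.80 (adjusted p = 2.1e-04) and Krt6a by 6.59 ± 0.60 (adjusted p = 1.9e-04). The partner Krt6b rose by 6.85 ± 0.71 and Krt4, which pairs with Krt13, by 6.53 ± 0.65. The basal keratins Krt5 and Krt14 rose by 5.13 ± 0.60 and 6.67 ± 0.80. Krt2 and Krt77, keratins of cornified skin, were not called, at 4.22 ± 2.11 and 4.21 ± 1.38. Only 2 of the 15 keratins had an unirradiated mean above 6.95, against 15 with irradiation. The count of risen keratins was 8 without unirradiated replicate 1 and 8 without unirradiated replicate 2, and the call of Krt1, at 8.77 ± 2.46, was lost without any of unirradiated replicate 1, unirradiated replicate 2, irradiated replicate 1 or irradiated replicate 3.

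The proteins that build and shed the cornified layer followed the same course. Of 38 tested genes of cornified envelope and squamous differentiation, 33 rose and none fell, with a median change of 5.88. Sprr1a, a small proline-rich envelope precursor, read 6.34 and 6.69 without and 13.20, 11.63 and 12.80 with irradiation. The order of the irradiated arrays was that of the keratins, with replicate 2 lowest. Sprr1a rose by 6.03 ± 0.66 (adjusted p = 4.1e-04), Cnfn, which encodes cornifelin, by 4.95 ± 0.70, Ivl, which encodes involucrin, by 6.45 ± 1.15 and Tgm1, the transglutaminase that cross-links the envelope, by 3.69 ± 0.62. Dmkn, a secreted keratinocyte protein, rose by 6.98 ± 0.89, Spink5, a protease inhibitor of the shedding layer, by 6.23 ± 0.91 and Klk8 by 3.74 ± 0.64. Tgm3, at -1.53 ± 0.69, and Evpl, at 0.20 ± 0.41, were not called. Sprr2 genes are near-identical copies, and their separate values are uncertain. The number of risen members was 19 without unirradiated replicate 1 and 16 without unirradiated replicate 2. The mean level of the list was 5.12 and 5.03 on the unirradiated arrays and 11.53, 9.88 and 10.94 on the irradiated arrays.

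Transcription factors and adhesion genes of keratinocytes changed in part. Trp63, which encodes the master factor of stratified epithelium p63, read 4.41 and 4.99 without and 11.16, 9.06 and 10.54 with irradiation. It was dim on both unirradiated arrays and separated from them by over 4 units on each irradiated array. Trp63 rose by 5.55 ± 0.63 (adjusted p = 4.8e-04). In its list 7 of 14 factors rose and 1 fell. Grhl1, a grainyhead-like factor of the epidermal barrier, rose by 3.75 ± 0.68, and Klf5, a factor of proliferating epithelium, fell by 0.71 ± 0.20. Among desmosome genes 4 of 13 rose and 2 fell, beside 14% and 9.5% of all genes. The desmosomal cadherin of stratified epithelium, Dsc3, read 4.0 and 2.21 without and 10.94, 8.78 and 10.42 with irradiation and rose by 6.94 ± 0.99. Dsg2, the desmoglein of simple epithelium, read 14.20 and 14.07 without and 13.21, 13.48 and 13.36 with irradiation and fell by 0.79 ± 0.14 (adjusted p = 0.00407). Dsp, the desmosomal plaque protein that both kinds of epithelium share, was not called at -0.16 ± 0.18. Hair follicle and sebaceous gland genes rose in 3 of 10 cases, and none of these 3 calls (Krt25, Elovl3 and Scd3) held without unirradiated replicate 1, unirradiated replicate 2, irradiated replicate 1 or irradiated replicate 3, while 1 gene of this list was called without irradiated replicate 2. The factor count was 3, 1, 2 and 2 risen genes without those arrays in that order, and the desmosome count 1, 1, 1 and 2. Without irradiated replicate 2, 3 factors were called lower. The call of Grhl1 was lost without unirradiated replicate 2 and that of Klf5 without any of those 4 arrays.

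**Figure D3:**
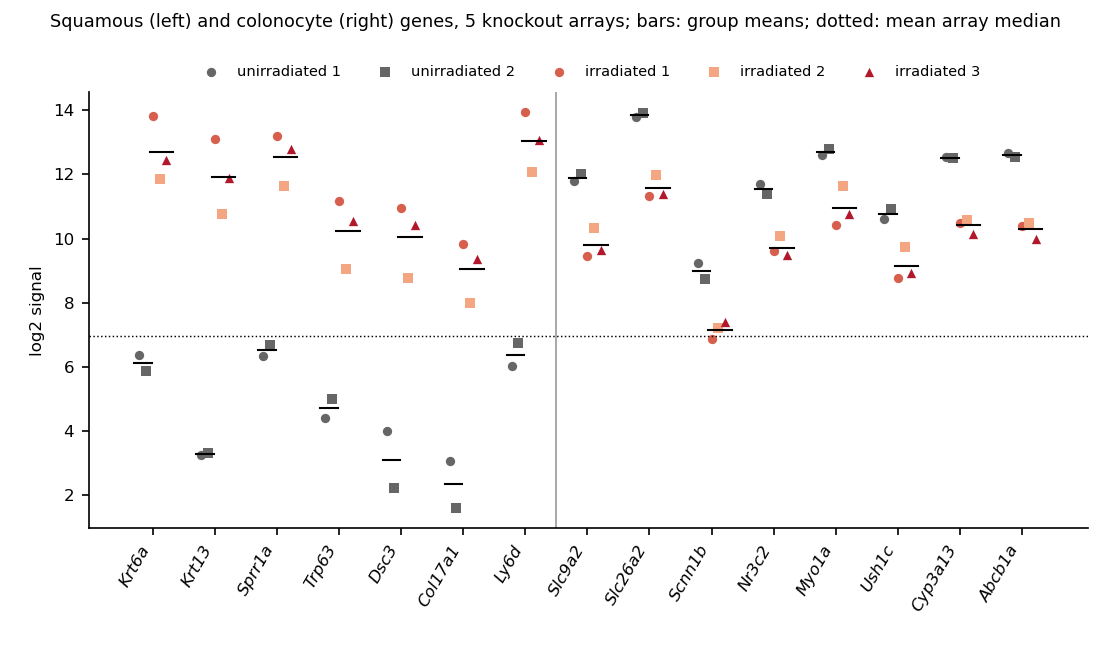
Log2 signal (y axis) of 7 squamous genes (left) and 8 colonocyte genes (right) on each of the 5 knockout arrays, with grey marks for unirradiated and red marks for irradiated arrays, a bar at each group mean and a dotted line at 6.95, the mean array median. The groups overlap in none of the 15 genes, which are called genes, and all 2957 called genes separate the groups. Over all genes tested, 28.4% separate in the higher and 25.6% in the lower direction. Irradiated replicate 2 is the irradiated array nearest to the unirradiated arrays in most of the 15 genes.

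Genes of the columnar intestinal epithelium fell in the same arrays. Of 188 tested genes in 10 lists of intestinal epithelium, 73 fell and 16 rose, against 9.5% and 14% of all genes tested. Among genes of salt and water transport 19 of 32 fell and none rose, with a median change of -1.25. Slc26a2, a sulphate transporter, read 13.78 and 13.91 without and 11.34, 11.97 and 11.39 with irradiation, and Slc9a2, a sodium-proton exchanger, went from 11.79 and 12.01 to 9.47, 10.33 and 9.63. In both, every irradiated array lay below both unirradiated arrays and replicate 2 was the least reduced. Slc26a2 fell by 2.28 ± 0.26 (adjusted p = 4.5e-04) and Slc9a2 by 2.09 ± 0.27 (adjusted p = 9.4e-04). Scnn1b, a subunit of the epithelial sodium channel, fell by 1.84 ± 0.26, and Nr3c2, the mineralocorticoid receptor that induces this channel, by 1.81 ± 0.22. Aqp8, a water channel of surface colonocytes, fell by 2.30 ± 0.37, Cftr, the chloride channel of the crypt, by 1.05 ± 0.19, Best2, a bicarbonate channel, by 2.34 ± 0.37 and Guca2a, the hormone guanylin, by 1.83 ± 0.28. Clca4a and Guca2b were not called, at -0.05 ± 0.25 and -0.15 ± 0.26. The mean level of the list was 11.92 and 12.14 without and 10.53, 11.09 and 10.61 with irradiation. The count of fallen members was 11 without unirradiated replicate 2. Slc26a3, the chloride-bicarbonate exchanger, fell by 2.66 ± 0.67 with irradiated replicate 2 at 14.04 against 11.89 and 10.98, and its call was lost without unirradiated replicate 1, unirradiated replicate 2 or irradiated replicate 1. That of Scnn1g, a further sodium channel subunit at -3.64 ± 0.72, was lost without unirradiated replicate 1.

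The brush border, the carpet of microvilli that faces the lumen, showed 12 of 22 genes lower and none higher. Myo1a, the microvillar motor, read 12.62 and 12.80 without and 10.43, 11.64 and 10.75 with irradiation. Ush1c, a scaffold that links microvilli at their tips, went from 10.62 and 10.93 to 8.78, 9.75 and 8.92. Both genes separated the groups, with replicate 2 closest to the unirradiated arrays. Myo1a fell by 1.77 ± 0.32 and Ush1c by 1.63 ± 0.27. Mep1a, a protease of the brush border, fell by 2.90 ± 0.49, Slc15a1, a peptide transporter, by 2.18 ± 0.32 and Ezr, which encodes ezrin, by 0.94 ± 0.17. The mucin gene Muc13 was not called at 0.03 ± 0.32. The count was 5 without unirradiated replicate 2.

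Of 18 tested genes of tight and adherens junctions 7 fell, beside 9.5% of all genes, and 2 rose, a share below the 14% of all genes. The median change was -0.51. Cgn, which encodes the tight junction protein cingulin, fell by 1.24 ± 0.19 and Ocln, which encodes occludin, by 0.81 ± 0.14. Cldn1, the claudin of the epidermal barrier, read 5.31 and 5.77 without and 10.33, 8.51 and 9.34 with irradiation, again above both unirradiated arrays on every irradiated array, and rose by 3.85 ± 0.58 (adjusted p = 0.00201). The other riser, Cldn4, at 1.78 ± 0.43, lost its call without unirradiated replicate 1 or 2. The fall count was 2 without each of unirradiated replicate 1, unirradiated replicate 2, irradiated replicate 1 and irradiated replicate 3.

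Factors that specify intestinal epithelium were lower in 10 of 16 cases and higher in 1. Cdx1, a homeobox factor of intestinal identity, read 11.56 and 11.99 without and 9.79, 10.80 and 10.38 with irradiation and fell by 1.45 ± 0.25 (adjusted p = 0.00407). Its relative Cdx2 read 9.73 and 9.70 without and 7.10, 9.57 and 9.03 with irradiation and was not called at -1.15 ± 0.64. Vdr, the vitamin D receptor, fell by 2.13 ± 0.35. Prdm1, a repressor expressed in fetal gut, keratinocytes and plasma cells, rose by 2.0 ± 0.32. The count of fallen factors was 3 without unirradiated replicate 1 and 4 without each of unirradiated replicate 2, irradiated replicate 1 and irradiated replicate 3. Simple keratins, the filaments of columnar cells, moved little: Krt8 was not called at -0.24 ± 0.20 and Krt7 at 0.40 ± 0.40, and the only called member of 6 was Krt18, which fell by 0.74 ± 0.18 and lost that call without unirradiated replicate 1, unirradiated replicate 2 or irradiated replicate 1.

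Enzymes and pumps that handle foreign compounds were also lower. Of 36 tested genes of xenobiotic metabolism 18 fell and 2 rose, with a median of -0.88. Abcb1a, the drug efflux pump P-glycoprotein, read 12.66 and 12.55 without and 10.38, 10.49 and 10 with irradiation, and Cyp3a13 went from 12.53 and 12.51 to 10.49, 10.58 and 10.15. Each group spanned less than 0.5 units in both genes, unlike in the squamous genes. Abcb1a fell by 2.32 ± 0.17 (adjusted p = 8.6e-05) and Cyp3a13 by 2.11 ± 0.16 (adjusted p = 1.1e-04). The sulphotransferase Sult1c2 fell by 3.08 ± 0.40 and Akr1c19, an aldo-keto reductase, by 3.06 ± 0.42. Nr1i3, which encodes the receptor CAR that induces such enzymes, fell by 4.42 ± 1.08, a call lost without unirradiated replicate 1 or 2. Cyp4b1 rose by 2.16 ± 0.33. The fall count was 7 without unirradiated replicate 2.

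Goblet cell genes, enteroendocrine genes and crypt stem cell genes gave fewer calls. Of 19 goblet cell and mucus genes 6 fell and 2 rose, beside 9.5% and 14% of all genes. The main mucin Muc2 read 14.39 and 14.61 without and 13.19, 14.15 and 14.06 with irradiation and was not called at -0.70 ± 0.29. Agr2, a folding factor for mucins, was not called at 0.02 ± 0.20. Ern2, the goblet cell stress sensor, fell by 2.11 ± 0.33 and Bcas1 by 1.55 ± 0.18. Ang4, an antimicrobial ribonuclease, went from 6.4 and 4.84 to 12.87, 8.64 and 10.85 and rose by 5.16 ± 1.11, a call lost without unirradiated replicate 2. Retnlb, a secreted defence protein of goblet cells, rose by 5.23 ± 1.07 from 7.27 and 3.27, a rise of 3.23 without the call once unirradiated replicate 2 was left out. The goblet falls numbered 3, 2 and 3 without unirradiated replicate 1, unirradiated replicate 2 and irradiated replicate 1, and 11 without irradiated replicate 2, while the rises numbered 0 without unirradiated replicate 2.

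Of 15 enteroendocrine genes 2 rose and none fell, near the shares over all genes, and both calls (Tph1 at 1.05 ± 0.31 and Nts at 1.82 ± 0.57) were lost without unirradiated replicate 1, unirradiated replicate 2 or irradiated replicate 3, among others. Chgb, a granule protein of these cells, was not called at 0.07 ± 0.31. Among 14 crypt stem cell genes 2 rose, a share near the 14% over all genes. Lgr5, the receptor that marks crypt base stem cells, read 8.01 and 6.78 without and 7.58, 7.10 and 7.84 with irradiation and its groups overlapped, with a change of 0.11 ± 0.37. Cd44, a hyaluronan receptor of crypts and many stromal and immune cells, rose by 2.24 ± 0.35, and Olfm4 by 3.35 ± 0.89, a call lost without unirradiated replicate 1, irradiated replicate 1 or irradiated replicate 3. Genes of regenerating epithelium rose in 5 of 10 cases. Reg3g, an antibacterial lectin, read 1.93 and 2.40 without and 8.39, 9.82 and 8.98 with irradiation and rose by 6.89 ± 1.12, from far below the array median. Hbegf and Ereg, ligands of the EGF receptor family, rose by 1.92 ± 0.30 and 2.36 ± 0.48. Anxa1, an anti-inflammatory annexin, rose by 1.13 ± 0.23, and Anxa3 was not called at -0.10 ± 0.12. The regenerative count was 3 without unirradiated replicate 1 and 3 without unirradiated replicate 2, where the calls of Anxa1 and Ereg respectively were lost.

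Extracellular matrix genes rose broadly and with a small spread between arrays. Of 166 tested genes in 11 lists of matrix and mesenchyme, 81 rose and 6 fell, beside 14% and 9.5% of all genes. Fibrillar and fibril-associated collagens rose in 11 of 12 cases, with a median of 1.35. Col1a2, a chain of type I collagen, read 11.05 and 11.28 without and 13.14, 13.02 and 13.36 with irradiation, and Col3a1, the type III chain, went from 12.18 and 12.63 to 13.72, 13.84 and 14.01. Here irradiated replicate 2 stood level with the others, and each irradiated array lay at least 1 unit above both unirradiated arrays. Col1a2 rose by 2.01 ± 0.16 (adjusted p = 1.2e-04) and Col3a1 by 1.45 ± 0.16 (adjusted p = 3.6e-04). Col5a2 rose by 1.87 ± 0.18, Col14a1, a fibril-associated collagen, by 2.23 ± 0.23, and the type VI chains Col6a1, Col6a2 and Col6a3 by 0.84 ± 0.14, 1.24 ± 0.17 and 1.09 ± 0.16. The exception, Col16a1, stayed at 0.00 ± 0.19.

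The proteins that bind, fold and cross-link collagen were higher as well. Of 16 small proteoglycan and elastic fibre genes 11 rose. Dcn, the collagen-binding proteoglycan decorin, read 11.98 and 12.03 without and 14.47, 14.16 and 14.28 with irradiation and rose by 2.30 ± 0.16 (adjusted p = 7.3e-05). Bgn, the related biglycan, rose by 1.94 ± 0.17, Lum, which encodes lumican, by 3.20 ± 0.25 and Fbln5, an elastic fibre assembly protein, by 2.58 ± 0.22. Mfap5, a microfibril protein, rose by 3.14 ± 0.38. Among folding and cross-linking genes 8 of 12 rose, including Loxl1 by 1.30 ± 0.19, Crtap, a subunit of the prolyl 3-hydroxylase complex, by 1.23 ± 0.16, Pcolce, an enhancer of procollagen cleavage, by 1.89 ± 0.25 and the procollagen protease Bmp1 by 1.90 ± 0.31. Lox, the main cross-linking oxidase, rose by 2.20 ± 0.51, a call lost without unirradiated replicate 1 or 2. The lysyl hydroxylases Plod1 and Plod2 were not called, at 0.00 ± 0.22 and 0.06 ± 0.24. The count of risen folding and cross-linking genes was 4 without unirradiated replicate 1 and 4 without unirradiated replicate 2.

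Basement membrane and matricellular genes were mixed. Of 19 basement membrane genes 8 rose and 1 fell, beside 14% and 9.5% of all genes. The anchor of basal keratinocytes Col17a1 read 3.07 and 1.59 without and 9.82, 8.0 and 9.37 with irradiation and rose by 6.73 ± 0.67 (adjusted p = 2.8e-04), in the range of the squamous genes and with the same order of irradiated arrays. Lama2 and Lama4, laminin chains of muscle and vessels, rose by 1.39 ± 0.24 and 1.54 ± 0.19. Lamb3, a laminin chain of epithelium, fell by 0.97 ± 0.16. Matricellular genes rose in 8 of 16 cases. Sparc, a collagen-binding glycoprotein, rose by 1.59 ± 0.22, Ccn1 by 1.95 ± 0.31 and Tgfbi by 2.02 ± 0.34. Thbs4, a thrombospondin, read 12.72 and 13.22 without and 10.79, 11.80 and 10.83 with irradiation and, alone in this list, fell by 1.83 ± 0.29. The basement membrane rises numbered 5 and 3 without unirradiated replicates 1 and 2, and the matricellular rises 5 without unirradiated replicate 1 and 5 without irradiated replicate 3.

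Proteases of the matrix and their inhibitors rose in 10 of 14 cases, beside 14% of all genes, with a median of 1.97. Mmp2, a gelatinase of fibroblasts, went from 8.35 and 9.03 to 10.78, 10.10 and 10.49 and rose by 1.77 ± 0.26. Mmp13, a collagenase, rose by 3.67 ± 0.60, Mmp12, the macrophage elastase, by 5.08 ± 0.96 and Timp2 by 1.20 ± 0.18. Timp3 and Timp4 were not called, at 0.27 ± 0.21 and -0.57 ± 0.41. Without unirradiated replicate 1 the count was 6, and the call of Mmp12 was lost.

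TGF-beta is the best-known driver of fibrosis, acting through receptors and SMAD proteins, and of 19 tested genes of its pathway 5 rose and 1 fell, beside 14% and 9.5% of all genes. Tgfbr2, the type II receptor, read 11.23 and 11.27 without and 12.30, 12.31 and 12.24 with irradiation, with less than 0.1 units between the arrays of a group, and rose by 1.03 ± 0.13 (adjusted p = 7.6e-04). Smad7, an inhibitor of the pathway, fell by 0.76 ± 0.19. Inhba, an activin subunit, rose by 1.37 ± 0.33, Eng, the co-receptor endoglin of endothelium, by 1.04 ± 0.22 and Tgfbr3 by 0.78 ± 0.19. The type I receptor Tgfbr1 was not called at 0.15 ± 0.27. Without unirradiated replicate 1 the only call left was that of 1 risen gene, without unirradiated replicate 2, irradiated replicate 1 and irradiated replicate 3 the rises numbered 2 each, and Inhba lost its call without any of these 4 arrays. The call of Smad7 was lost without unirradiated replicate 1, unirradiated replicate 2 or irradiated replicate 1, that of Eng without unirradiated replicate 1 or 2, and that of Tgfbr3 without unirradiated replicate 1, irradiated replicate 1 or irradiated replicate 3.

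In the PDGF family 1 of 6 tested genes rose and 1 fell, beside 14% and 9.5% of all genes. Pdgfra, the receptor of PDGF-C, read 8.73 and 9.01 without and 11.33, 10.31 and 10.88 with irradiation. Its lowest irradiated value lay 1.3 units above its highest unirradiated value, and it rose by 1.97 ± 0.29 (adjusted p = 0.00175). Pdgfa, a further ligand of this receptor, fell by 0.63 ± 0.18, a call lost without any of unirradiated replicate 1, unirradiated replicate 2, irradiated replicate 1 or irradiated replicate 3. Neither Pdgfd (-0.42 ± 0.40) nor Pdgfrb, the other receptor (0.33 ± 0.25), was called. Pdgfb was not called at 0.79 ± 0.27. Without irradiated replicate 2 the rises in this family numbered 4.

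Fibroblast markers rose in 12 of 19 cases, beside 14% of all genes, with a median of 1.67. Vim, which encodes the filament protein vimentin, read 10.92 and 11.36 without and 13.41, 12.91 and 13.24 with irradiation and rose by 2.05 ± 0.19 (adjusted p = 2.3e-04). Dpt, a dermatopontin of adventitial fibroblasts, rose by 2.05 ± 0.24, Cd34, a marker of adventitial fibroblasts and endothelium, by 1.90 ± 0.26 and Pi16 by 3.52 ± 0.78. The gut mesenchyme factors Foxf1 and Foxf2 were not called, at 0.09 ± 0.24 and 0.35 ± 0.27. In bulk tissue, more cells of a type and more RNA per cell cannot be told apart. Smooth muscle genes gave no call in either direction among 14 tested, with a median of 0.09, or -0.03 with each array centred on its median. The actin Acta2 read 14.61 and 14.63 without and 14.76, 14.74 and 14.65 with irradiation. Without unirradiated replicate 1 the fibroblast count was 7, and the call of Pi16 was lost.

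Signals that mesenchyme and epithelium exchange changed in 9 of 19 cases, 7 higher and 2 lower, beside 14% and 9.5% of all genes. Bmp4, which mesenchyme sends to the crypt, read 8.37 and 9.06 without and 10.42, 10.53 and 10.43 with irradiation and rose by 1.75 ± 0.24. Bmp2, made by surface colonocytes, went from 12.60 and 11.88 to 10.65, 11.11 and 10.77 and fell by 1.40 ± 0.23. The irradiated arrays agreed closely for Bmp4, and both genes separated the groups. Wnt4 rose by 3.90 ± 0.59, and the Wnt antagonists Sfrp2 and Dkk2 rose by 2.84 ± 0.29 and 5.21 ± 1.03. Hhip and Sfrp1 were not called, at 0.00 ± 0.44 and 0.02 ± 0.33. The rises numbered 4 without unirradiated replicate 1, and the falls 1 without unirradiated replicate 2.

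Vessel genes rose in both lists examined. All 5 tested lymphatic vessel genes rose, and all 5 did so without any array in turn. Lyve1, the hyaluronan receptor of lymphatic endothelium, read 8.26 and 8.46 without and 10.37, 10.04 and 10.33 with irradiation and rose by 1.89 ± 0.20 (adjusted p = 3.2e-04). Reln, a secreted glycoprotein of collecting lymphatics, went from 7.27 and 7.28 to 9.77, 9.67 and 9.75, with less than 0.2 units between the arrays of each group. It rose by 2.46 ± 0.29. Flt4, the VEGF-C receptor, rose by 1.81 ± 0.26, Mmrn1 by 2.57 ± 0.33 and Pdpn, which encodes podoplanin, by 2.63 ± 0.35. Fibroblasts and keratinocytes also express Pdpn. Of 22 blood vessel genes 14 rose, beside 14% of all genes. Vcam1, an adhesion molecule for leukocytes, rose by 2.38 ± 0.35, Cldn5, the endothelial claudin, by 1.71 ± 0.31, Emcn by 1.71 ± 0.24 and Plvap, a protein of capillary openings, by 1.20 ± 0.21. Robo4 and Sox17 were not called, at 0.17 ± 0.35 and 0.22 ± 0.22. The blood vessel count was 7 and 4 without unirradiated replicates 1 and 2, and 9 without each of irradiated replicates 1 and 3.

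Genes of immune cells and their signals made the largest group of rises. Of 174 tested genes in 13 immune lists, 125 rose and 2 fell, beside 14% and 9.5% of all genes. Interferons induce GTPases that attack intracellular microbes, and 9 of 10 tested genes of this family rose, with a median of 3.23. The 9 were Gbp2, Gbp3, Gbp6, Gbp7, Gbp8, Iigp1, Irgm1, Irgm2 and Igtp, and each held its call without any array in turn. Iigp1 read 8.36 and 7.5 without and 12.69, 12.79 and 12.80 with irradiation, and Igtp went from 8.80 and 8.51 to 12.93, 13.04 and 12.68. Irradiated replicate 2 was as high as the others here, and the irradiated arrays differed by less than 0.4 units. Iigp1 rose by 4.84 ± 0.35 (adjusted p = 8.8e-05), Igtp by 4.23 ± 0.37, Gbp6 by 4.88 ± 0.34 and Gbp3 by 2.99 ± 0.21. The member not called, Mx1, stood at 1.06 ± 0.41. Gbp genes are close relatives in a cluster, and probe sets may read more than 1 of them.

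These genes moved together, so the bases before their start sites were searched for the letters of the interferon-stimulated response element (ISRE, read as GAAA, 2 bases of any kind and GAAA again), on both strands. The windows were the 250 bases before each start from RefSeq on GRCm38.p6. All 6 of the tested GTPase genes with an entry held an ISRE match, against 3.46% of 27025 genes. The matches of Gbp3 and of Irgm1 are pairs that overlap. The ISRE match lay 59 bases before the start in Gbp2, 45 and 39 in Gbp3, 53 in Gbp7, 34 in Igtp, 30 and 24 in Irgm1 and 64 in Irgm2, counted from its first base. Among 19 antiviral and other interferon-stimulated genes with an entry, 8 held an ISRE match (42.1%). Of these 8, Rsad2 and 5 others rose and 2, among them Oas1a, were not called. Ctss of the MHC class II list held a match and was not called either. A match describes the letters only. The 120 bases before the start are shown for the 6 GTPase genes and Rsad2, since these carry the shared letters, with the matches in capitals. They lie at chr3:142620543-142620662 (Gbp2), chr3:142559924-142560043 (Gbp3), chr3:142530216-142530335 (Gbp7), chr11:58199436-58199555 (Igtp) and chr11:58214857-58214976 (Irgm2) on the plus strand, and at chr11:48871421-48871540 (Irgm1) and chr12:26456453-26456572 (Rsad2) on the minus strand.
Gbp2: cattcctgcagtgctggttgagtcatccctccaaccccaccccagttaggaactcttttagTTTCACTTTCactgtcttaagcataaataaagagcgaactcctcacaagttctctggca
Gbp3: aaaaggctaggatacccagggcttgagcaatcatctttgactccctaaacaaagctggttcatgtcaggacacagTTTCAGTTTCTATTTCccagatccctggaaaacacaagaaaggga
Gbp7: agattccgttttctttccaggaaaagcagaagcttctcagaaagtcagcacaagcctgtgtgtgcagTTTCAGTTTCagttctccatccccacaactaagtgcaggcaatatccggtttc
Igtp: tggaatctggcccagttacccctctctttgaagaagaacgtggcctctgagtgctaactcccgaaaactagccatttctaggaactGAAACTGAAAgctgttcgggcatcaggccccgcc
Irgm2: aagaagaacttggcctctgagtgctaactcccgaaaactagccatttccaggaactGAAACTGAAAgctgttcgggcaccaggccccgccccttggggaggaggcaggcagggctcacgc
Irgm1: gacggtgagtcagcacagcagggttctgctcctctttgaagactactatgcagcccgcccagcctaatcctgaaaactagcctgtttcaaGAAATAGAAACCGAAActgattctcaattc
Rsad2: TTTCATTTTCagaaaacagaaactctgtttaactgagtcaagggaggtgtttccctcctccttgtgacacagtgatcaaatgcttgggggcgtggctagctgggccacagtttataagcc

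Presentation of antigen to T cells depends on MHC class II molecules, their chaperones and the master activator CIITA, and 8 of 10 tested genes of this list rose, with a median of 2.53. H2-Eb1 read 10.99 and 10.74 without and 13.66, 13.81 and 13.83 with irradiation, and H2-Ab1 went from 10.49 and 10.08 to 13.24, 13.80 and 13.29. Every irradiated array lay over 2.5 units above both unirradiated arrays in both genes. H2-Eb1 rose by 2.90 ± 0.17 (adjusted p = 4.0e-05), H2-Ab1 by 3.15 ± 0.26, Cd74, the invariant chain, by 2.53 ± 0.22 and Ciita by 3.40 ± 0.34. Ctss, a protease that trims the invariant chain, was not called at -0.33 ± 0.19. Of 13 genes of MHC class I presentation 8 rose. Nlrc5, the activator of class I genes, rose by 3.33 ± 0.26, the peptide transporter Tap1 by 2.51 ± 0.36 and the immunoproteasome subunits Psmb8 and Psmb9 by 2.32 ± 0.30 and 2.38 ± 0.30, while the heavy chain genes H2-K1 and H2-D1 were not called, at 0.37 ± 0.23 and 0.41 ± 0.17. Heavy chain genes are near-identical, and their values may mix. Without unirradiated replicate 1 the class I count was 5.

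Of 25 antiviral and other interferon-stimulated genes 16 rose, with a median of 1.55. Ifit2, which binds viral RNA, read 7.52 and 7.06 without and 11.04, 10.35 and 11.45 with irradiation and rose by 3.66 ± 0.39 (adjusted p = 3.7e-04). Rsad2, which encodes viperin, went from 8.18 and 8.20 to 10.41, 10.35 and 10.48, a difference of over 2 units with arrays of a group within 0.2 units of each other. It rose by 2.22 ± 0.30. Ido1, the tryptophan-degrading enzyme, rose by 3.93 ± 0.50, Zbp1, a sensor of nucleic acids, by 2.73 ± 0.30 and Cd274, the checkpoint ligand PD-L1, by 2.60 ± 0.37. Oas1a and Oasl1 were not called, at 0.13 ± 0.33 and -0.11 ± 0.26.

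Chemokines, the secreted guides of leukocytes, rose in each of the 3 groups listed. Among those that attract lymphocytes 7 of 11 rose. Cxcl9, induced by interferon gamma, read 2.96 and 3.48 without and 9.86, 9.51 and 10.09 with irradiation and rose by 6.60 ± 0.28 (adjusted p = 4.0e-06), from well below the array median. Cxcl10 rose by 4.19 ± 0.56 and Ccl5 by 4.90 ± 0.73, whereas the epithelial chemokines Ccl20 and Ccl28 were not called, at -0.10 ± 0.43 and -0.60 ± 0.48. Among those that attract monocytes, eosinophils and mast cells 7 of 9 rose, among them Ccl2 by 2.58 ± 0.36 and Ccl7 by 3.79 ± 0.58 beside Ccl8. In the list of neutrophil chemokines and neutrophil genes 9 of 11 rose. Cxcl5 read 7.82 and 7.06 without and 12.88, 11.64 and 11.13 with irradiation, and S100a8, a subunit of calprotectin, 5.49 and 2.72 against 13.43, 11.46 and 12.75. Both separated the groups by over 3 units. Cxcl5 rose by 4.44 ± 0.70, S100a8 by 8.44 ± 0.93, its partner S100a9 by 8.19 ± 0.85, Ppbp, a platelet and epithelial chemokine, by 8.59 ± 1.46 and Lcn2, an iron-trapping protein, by 4.51 ± 0.35. Keratinocytes also make calprotectin. The irradiated arrays ranked in S100a8 as in the keratins, but also as in the macrophage genes, with list means of 9.55, 8.80 and 9.50. The source of the signal was not tested. Ngp, which neutrophil precursors make, read 7.23 and 5.95 without and 5.38, 6.38 and 6.15 with irradiation and was not called at -0.62 ± 0.69.

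Among cytokines of the interleukin 1, interleukin 6 and tumour necrosis factor families, 8 of 16 genes rose. Il1b, a fever-inducing cytokine of myeloid cells, went from 7.01 and 6.37 to 10.49, 9.51 and 11 and rose by 3.64 ± 0.61. Osmr, the oncostatin M receptor of stroma and epithelium, read 7.58 and 7.78 without and 10.35, 9.98 and 10.29 with irradiation and rose by 2.53 ± 0.18 (adjusted p = 8.8e-05). Tnf rose by 2.88 ± 0.51 and Csf1, a growth factor of macrophages, by 1.62 ± 0.25. Il1f6, an interleukin 36 ligand of keratinocytes, rose by 5.01 ± 1.10, a call lost without unirradiated replicate 1. Il18 and the interleukin 1 antagonist Il1rn were not called, at 0.08 ± 0.41 and -0.42 ± 0.29. The count was 5 without unirradiated replicate 2.

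Macrophage genes rose in 17 of 19 cases and fell in 1, beside 14% and 9.5% of all genes, with a median of 2.85. Fcgr3 read 6.99 and 6.96 without and 10.93, 10.09 and 10.83 with irradiation, and Fcer1g, the signalling chain of Fc receptors, 6.78 and 7.55 against 11.11, 10.20 and 10.71. Replicate 2 was the lowest irradiated array in both, though over 2.6 units above the unirradiated arrays. Fcer1g rose by 3.51 ± 0.29 (adjusted p = 1.3e-04), its relative Tyrobp by 3.64 ± 0.34, Cd163, a haemoglobin scavenger receptor, by 4.23 ± 0.50 and Fcgr1 by 3.85 ± 0.37. The endotoxin co-receptor Cd14 was not called at 0.89 ± 0.45. Mertk, a receptor for apoptotic cells, fell by 1.48 ± 0.37, a call lost without unirradiated replicate 1, unirradiated replicate 2 or irradiated replicate 1. Of 13 complement genes 8 rose. C1qb, a chain of the C1q complex that macrophages make, read 7.25 and 8.18 without and 11.99, 11.30 and 12.01 with irradiation and rose by 4.06 ± 0.29 (adjusted p = 8.6e-05). C1qc rose by 3.68 ± 0.30, the protease C1s1 by 2.59 ± 0.20 and its inhibitor Serping1 by 2.60 ± 0.19. Cfb, a component of the alternative pathway, was not called at 0.09 ± 0.36.

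Lymphocyte genes started from low levels. Among T and NK cell genes 10 of 13 rose, with a median of 2.97. Cd3g, a chain of the T cell receptor complex, read 4.33 and 5.40 without and 8.24, 8.09 and 8.89 with irradiation and rose by 3.54 ± 0.41. Gzmb, the killer protease granzyme B, went from 3.97 and 4.12 to 8.68, 8.51 and 8.13 and rose by 4.39 ± 0.45. Neither gene reached the array median on an unirradiated array, and both exceeded it on all irradiated arrays. Cd247 rose by 4.74 ± 0.61 and the NK receptor gene Klrd1 by 2.90 ± 0.36. Cd8a read 7.15 and 7.07 without and 7.4, 7.19 and 7.78 with irradiation and was not called at 0.35 ± 0.27.

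Of 13 B and plasma cell genes 10 rose. Mzb1, a folding factor of plasma cells, read 7.04 and 6.87 without and 11.42, 11.05 and 12.71 with irradiation and rose by 4.78 ± 0.47 (adjusted p = 2.7e-04). Ighm, the IgM heavy chain, went from 7.98 and 8.03 to 11.52, 12.37 and 14.39, the widest spread among irradiated arrays of these genes, and rose by 4.75 ± 0.78. Jchain, which joins IgA and IgM units, read 8.72 and 11.98 without and 14.69, 14.86 and 15.04 with irradiation. The unirradiated arrays differed by over 3 units, and the rise of 4.51 ± 0.69 was 2.88 without unirradiated replicate 1. The B cell marker Ms4a1 was not called at 1.66 ± 0.98, nor the plasma cell marker Sdc1, which epithelium also expresses, at -0.17 ± 0.45. Ly6d, a gene of both B cell precursors and keratinocytes, rose by 6.65 ± 0.49. The order of its irradiated arrays was that of both the keratins and the macrophage genes. The count was 6 without unirradiated replicate 1 and 6 without unirradiated replicate 2.

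Mast cell genes rose in 8 of 11 cases and fell in 1. Cpa3, a granule carboxypeptidase, read 5.15 and 3.19 without and 10.16, 8.73 and 8.97 with irradiation and rose by 5.12 ± 0.57 (adjusted p = 4.4e-04). Mcpt1 and Mcpt2, proteases of mucosal mast cells, rose by 3.84 ± 0.52 and 3.10 ± 0.47, and Mcpt4, a protease of connective tissue mast cells, by 5.73 ± 0.96. Fcer1a, the chain of the IgE receptor that binds the antibody, rose by 6.08 ± 1.04 from a level near 1. The receptor gene Kit, which interstitial cells of the gut wall also express, fell by 0.63 ± 0.15, a call lost without unirradiated replicate 1 or irradiated replicate 1. Mcpt genes are close relatives, and their probe sets may cross-read. The rises numbered 5 without unirradiated replicate 1 and 5 without unirradiated replicate 2.

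Of 76 tested entries in 4 lists of cell division, DNA damage and senescence, 8 rose and 3 fell, shares below the 14% and 9.5% over all genes. Cdkn1a is in both the p53 and the senescence list, so its fall is counted in each. In the cell cycle list 3 of 26 rose. Mki67, the Ki-67 antigen of dividing cells, read 11.11 and 11.78 without and 11.34, 11.72 and 11.35 with irradiation and its groups overlapped, with a change of 0.02 ± 0.21. Ccnd1, which encodes cyclin D1, rose by 0.82 ± 0.17, a call lost without unirradiated replicate 2, and Rrm2, a subunit of ribonucleotide reductase, by 1.10 ± 0.23, a call lost without unirradiated replicate 1. The unirradiated arrays differed in these genes, with a list mean of 9.44 and 10.11 against 9.85, 10.31 and 9.96, and the count of risen genes was 1 without replicate 1 and 8 without replicate 2 of the unirradiated arrays.

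No gene of DNA damage signalling and repair was called among 21 tested, and the median change was 0.06, or -0.07 with each array centred on its median. Chek1, a checkpoint kinase, was at -0.03 ± 0.25 and Parp1, a sensor of strand breaks, at -0.05 ± 0.21. Of 18 p53 targets 5 rose, a larger share than the 14% over all genes, and 1 fell. Aen, an exonuclease gene, read 8.45 and 8.58 without and 9.24, 9.29 and 9.26 with irradiation and rose by 0.75 ± 0.16. Cdkn1a, which encodes the cell cycle inhibitor p21, went from 12.29 and 12.44 to 11.92, 11.66 and 11.86 and fell by 0.55 ± 0.14. Every irradiated array was below both unirradiated arrays for Cdkn1a and above both for Aen. Phlda3 rose by 1.44 ± 0.33, Eda2r by 2.0 ± 0.57 and Sesn2 by 1.70 ± 0.45. Mdm2 and Bbc3, targets of acute p53 activity, were not called, at 0.16 ± 0.16 and -0.05 ± 0.31. Among 11 genes of senescence-associated cell cycle arrest and the lamina, Cdkn1a and Lmnb2, at -1.91 ± 0.46, fell and none rose. The p53 rises numbered 1, 1, 2 and 2 without unirradiated replicates 1 and 2 and irradiated replicates 1 and 3, and 8 without irradiated replicate 2. The calls of Cdkn1a and Lmnb2 were lost without unirradiated replicate 1 or 2, that of Aen without unirradiated replicate 1, that of Phlda3 without unirradiated replicate 2, and those of Eda2r and Sesn2 without any of these 4 arrays.

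Energy metabolism was examined in 3 lists, to be read beside the 14% of all genes called higher and 9.5% called lower. Of 29 respiratory chain genes only Ndufa4 was called, at 0.93 ± 0.20, and that call was lost without unirradiated replicate 1, while 7 genes were called lower without irradiated replicate 2. Cox7a2 stood at -0.01 ± 0.16. Of 20 genes of fatty acid oxidation and ketogenesis 5 fell. Cpt1a, the entry enzyme of mitochondrial oxidation, read 12.16 and 12.01 without and 11.06, 11.10 and 11.22 with irradiation and fell by 0.96 ± 0.13 (adjusted p = 0.0011). Ppargc1a, a coactivator of mitochondrial genes, went from 11.56 and 11.63 to 9.79, 10 and 9.60 and fell by 1.80 ± 0.40, and Ehhadh and Acads fell by 0.95 ± 0.22 and 0.84 ± 0.18. Each of these last 3 calls was lost without unirradiated replicate 1 or 2, and the count was 1 without either array and 8 without irradiated replicate 2. Hadhb was not called at 0.00 ± 0.13. Of 19 genes of glycolysis and hypoxia response 4 fell and 1 rose. Pfkfb3, a glycolytic activator, rose by 1.90 ± 0.31, Car9, a hypoxia-induced carbonic anhydrase, fell by 1.13 ± 0.23, Hk1 by 0.60 ± 0.13 and Pfkl by 1.34 ± 0.32. The falls numbered 2 without unirradiated replicate 1 and 0 without unirradiated replicate 2.

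Circadian clock genes were called in both directions. The clock is a loop of activators and repressors. In it CLOCK, NPAS2 and BMAL1 (Arntl) activate Per, Cry and Nr1d genes and the output factors Dbp and Tef through E-box elements. The Per, Cry and Nr1d products in turn repress the activators. Of 17 tested genes 7 fell and 4 rose, beside 9.5% and 14% of all genes. Dbp read 12.27 and 10.96 without and 8.69, 6.99 and 8.60 with irradiation, Per3 went from 10.81 and 10.28 to 7.82, 7.70 and 8.35, and Nr1d2 from 13.03 and 12.83 to 11.13, 10.27 and 11.18. All of these separated the groups, and irradiated replicate 2 was the lowest array in each, unlike in the colonocyte genes. Per3 fell by 2.59 ± 0.33 (adjusted p = 9.3e-04), Nr1d2 by 2.07 ± 0.27, Tef by 1.85 ± 0.26, Ciart by 2.52 ± 0.46, Per2 by 2.08 ± 0.45 and Cry2 by 1.57 ± 0.40. Arntl, on the activating side, read 8.70 and 9.24 without and 10.02, 10.33 and 10.27 with irradiation and rose by 1.23 ± 0.20 (adjusted p = 0.00267). Nfil3, a repressor that competes with Dbp at D-box elements, went from 4.25 and 4.38 to 8.42, 8.15 and 8.23 and rose by 3.95 ± 0.29 (adjusted p = 8.9e-05). Rora, an activator of Arntl, rose by 2.02 ± 0.45 and Npas2 by 0.90 ± 0.29, while Clock and Cry1 were not called, at 0.10 ± 0.13 and -0.16 ± 0.22. These genes follow the time of day in most tissues, and the labels give no hour of tissue collection. Without unirradiated replicate 1 the falls numbered 4 and the rises 2, and without unirradiated replicate 2 the rises numbered 2. The calls of Per2 and Rora were lost without unirradiated replicate 1 or 2, that of Cry2 also without irradiated replicate 1, that of Ciart without unirradiated replicate 1 and that of Npas2 whichever of the 10 arrays was left out.

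**Figure D4:**
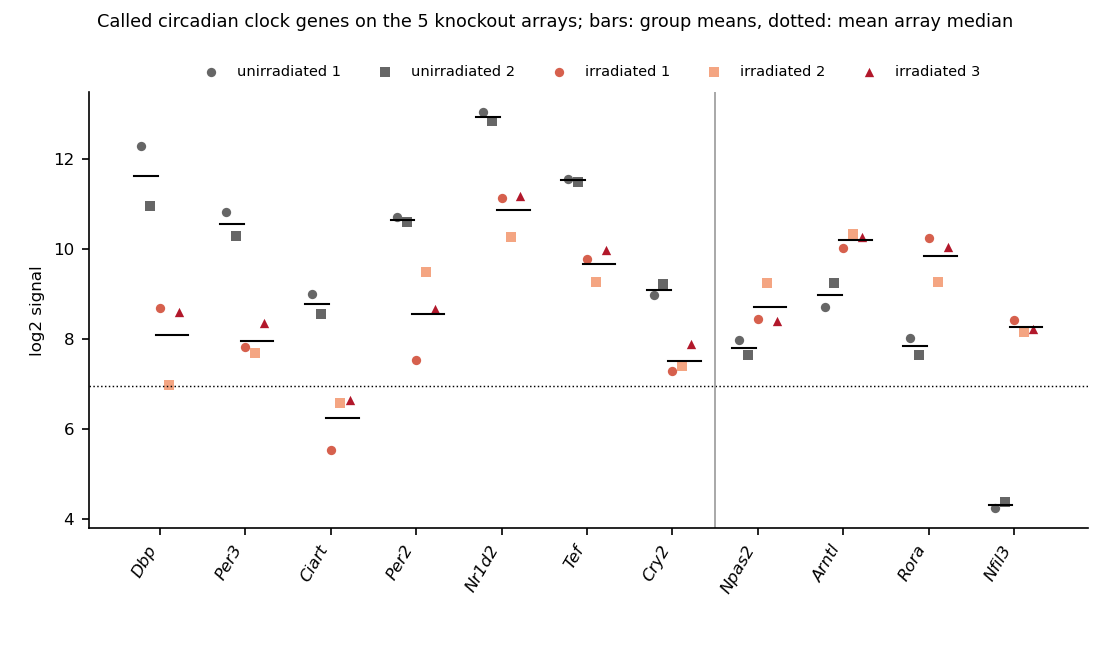
Log2 signal (y axis) of the 7 clock genes called lower (left) and the 4 called higher (right) on each of the 5 knockout arrays, with grey marks for unirradiated and red marks for irradiated arrays, a bar at each group mean and a dotted line at 6.95, the mean array median. The output genes Dbp, Per3 and Tef fall while Arntl and Nfil3 rise. The groups overlap in none of the 11 genes, which were picked as called, and all 2957 called genes separate the groups. Over all genes tested, 28.4% separate in the higher and 25.6% in the lower direction.

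The windows before the starts of the clock genes were searched for the E-box (CACGTG) and the D-box (TTA, a base of any kind and GTAA) in the same way. Of 16 listed clock genes with an entry 5 held an E-box match (31.2%, against 6.86% of all genes), namely Bhlhe41, Ciart, Cry1, Per1 and Tef, and Per3 alone held a D-box match, which 2.44% of all genes did. Ciart carried 3 E-box matches, at 116, 58 and 44 bases before its start, and Per3 carried D-box matches at 205 and 158 bases. Both genes fell. Of the other genes with an E-box match, Tef fell, Cry1 (match at 60 bases) and Per1 were not called, and Bhlhe41 was not tested. The 120 bases before the start of Ciart, chr3:95882229-95882348, and the 250 bases before that of Per3, chr4:151044666-151044915, both on the minus strand, are shown because they hold the repeated matches, which are in capitals.
Ciart: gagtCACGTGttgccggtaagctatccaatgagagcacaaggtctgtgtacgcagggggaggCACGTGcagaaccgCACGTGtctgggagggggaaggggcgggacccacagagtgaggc
Per3: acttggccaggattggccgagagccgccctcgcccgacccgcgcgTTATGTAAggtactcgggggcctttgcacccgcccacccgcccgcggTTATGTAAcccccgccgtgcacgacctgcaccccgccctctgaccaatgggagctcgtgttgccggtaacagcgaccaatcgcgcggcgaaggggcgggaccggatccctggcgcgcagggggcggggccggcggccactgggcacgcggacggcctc

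Genes of retinoid, prostaglandin and arginine metabolism changed in part. Of 17 retinoid genes 4 rose and none fell, beside 14% and 9.5% of all genes. Crabp2, a retinoic acid carrier of skin and mesenchyme, read -0.06 and 4.04 without and 10.70, 8.99 and 10.10 with irradiation and rose by 7.94 ± 1.04, and Aldh1a3, which makes retinoic acid, by 2.42 ± 0.42. Rbp4 rose by 0.93 ± 0.18 and the receptor gene Rarg by 0.99 ± 0.26, while its partner Rxra was not called at -0.03 ± 0.33. The count was 2 without unirradiated replicate 1, where Rbp4 and Rarg lost their calls, and that of Rarg was also lost without irradiated replicate 1 or 3. Without irradiated replicate 2, 3 retinoid genes were called lower. Of 15 prostaglandin genes 4 fell and 3 rose, beside 9.5% and 14% of all genes. Hpgd, the enzyme that degrades prostaglandins, read 13.09 and 13.26 without and 11.75, 11.68 and 11.46 with irradiation and fell by 1.54 ± 0.20 (adjusted p = 0.00107). Ptger3, a receptor of prostaglandin E2, fell by 2.16 ± 0.32, and Ptger4, another, was not called at 0.06 ± 0.18. Ptges, a synthase of prostaglandin E2, rose by 1.19 ± 0.27, a call lost without unirradiated replicate 1. The prostaglandin falls numbered 2 and the rises 1 without each of unirradiated replicate 1, unirradiated replicate 2, irradiated replicate 1 and irradiated replicate 3.

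Arginine metabolism showed 7 of 15 genes higher and none lower, beside 14% and 9.5% of all genes. Arg1, the arginase of alternatively activated macrophages and of keratinocytes, was far below the array median without irradiation, at 1.73 and 1.72, and bright after it, at 13.90, 12.11 and 12.47. Irradiated replicate 1 was the highest and replicate 2 the lowest of the irradiated arrays, as for both the keratins and the macrophage genes. Gatm, the first enzyme of creatine synthesis, rose by 1.46 ± 0.26 and Ddah2, which degrades an inhibitor of nitric oxide synthases, by 1.55 ± 0.27. Ornithine aminotransferase (Oat) was not called at 0.04 ± 0.15. The count was 3 without unirradiated replicate 1 and 4 without each of unirradiated replicate 2, irradiated replicate 1 and irradiated replicate 3.

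Of the lists for tissues outside the mucosa, adipocyte genes rose in 8 of 15 cases and fell in 1, beside 14% and 9.5% of all genes. Scd1, a fatty acid desaturase of fat and sebaceous gland, read 10.06 and 10.35 without and 14.25, 13.00 and 13.74 with irradiation and rose by 3.46 ± 0.40. Lpl, lipoprotein lipase, went from 8.51 and 8.33 to 13.00, 10.89 and 12.43 and rose by 3.69 ± 0.51, and the adipocyte hormone genes Adipoq and Retn by 3.38 ± 0.90 and 3.47 ± 0.75. The call of Adipoq was lost without any of unirradiated replicate 1, unirradiated replicate 2, irradiated replicate 1 or irradiated replicate 3, and that of Retn without unirradiated replicate 2. The mean level of the list was 7.82 and 7.27 without and 10.45, 8.62 and 9.88 with irradiation. Skeletal muscle genes rose in 3 of 22 cases, a share near the 14% over all genes, with a median change of 2.88. The groups did not overlap in 19 of the 22, beside 28.4% (higher) and 25.6% (lower) of all genes tested. In a fit on the 5 knockout arrays alone 19 were called higher, beside 1552 of all 12568 genes. Acta1, the skeletal muscle actin, read 11.45 and 10.95 without and 14.07, 13.57 and 14.22 with irradiation and was not called at 2.75 ± 1.20, with a standard error that the fit takes from all 10 arrays. The mean level of the muscle list was 8.49 and 7.93 without and 10.75, 10.01 and 11.47 with irradiation, above the mean array median of 6.95 in every sample. The part of muscle and fat RNA in the other results was not tested. Of 13 enteric neuron and glia genes only Scn7a rose, by 1.18 ± 0.26, a call lost without unirradiated replicate 2. No erythroid gene passed the filter on dim genes. The adipocyte rises numbered 4 without unirradiated replicate 2, and the muscle rises 1 without each of unirradiated replicate 1, unirradiated replicate 2, irradiated replicate 1 and irradiated replicate 3, where only Cacna1s, at 3.50 ± 0.59, kept its call.

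The response in the knockout was set against that in wild type by the difference of both changes, fitted over all 10 arrays. Of 12568 genes 22 (0.175%) responded more positively in the knockout and 4 (0.0318%) more negatively. Those above included 5 of 10 MHC class II genes and 4 of 10 interferon-induced GTPases. H2-Eb1 read 13.73 and 13.57 on the unirradiated and 13.71, 14.25 and 13.90 on the irradiated wild-type arrays. In the knockout its unirradiated values of 10.99 and 10.74 lay over 2.5 units below those of wild type, and its irradiated values of 13.66, 13.81 and 13.83 overlapped those of wild type. The difference of the changes was 2.59 (adjusted p = 0.00406). Nlrc5 showed the same arrangement, with 10.60 and 10.13 in unirradiated wild type against 7.27 and 6.47 in the unirradiated knockout and 9.95 to 10.67 over all 6 irradiated arrays, a difference of 3.26. Cxcl9 (3.41), Ccl8 (1.76), Hal (5.62) and Pla2g2a (3.62), a secreted phospholipase of the crypt, were the others above wild type among the smallest p.

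Sex and irradiation cannot be told apart in wild type, since all 3 irradiated wild-type arrays carried the female and both unirradiated ones the male transcript pattern. With the sex pattern as a covariate, 4 differences were called, in Car3, Ccl8, Hal and H2-Eb1. Only the irradiated knockout group holds both patterns, so this covariate rests on its replicate 1 against its replicates 2 and 3. An effect of sex and that array's own deviation cannot be told apart. Car3, a carbonic anhydrase of fat and muscle, read 12.45 and 12.09 in the unirradiated knockout against 6.91 and 7.02 in unirradiated wild type, and 13.94 to 14.78 over all 6 irradiated arrays. It rose by 2.15 ± 0.23 in the knockout and by 7.47 in wild type, a difference of -5.32. Ttr (-1.55) and Pdcd4 (-1.36) fell in the knockout, by 1.35 ± 0.14 and 1.31 ± 0.14, beside changes of 0.20 and 0.06 in wild type. Slc35e3 lost its difference of -1.37 whichever array was left out. Over all interferon-induced GTPases the median change was 3.23 in the knockout and 0.74 in wild type, over MHC class II genes 2.53 and 0.17, and over fibrillar collagens 1.35 and 1.39, beside 0.01 and 0.07 over all genes tested. No fibrillar collagen was called in the difference. Of the 26 differences, 7 were called without any array in turn (Car3, Ccl8, Cxcl9, H2-Eb1, Hal, Nlrc5 and Pla2g2a).

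**Figure D5:**
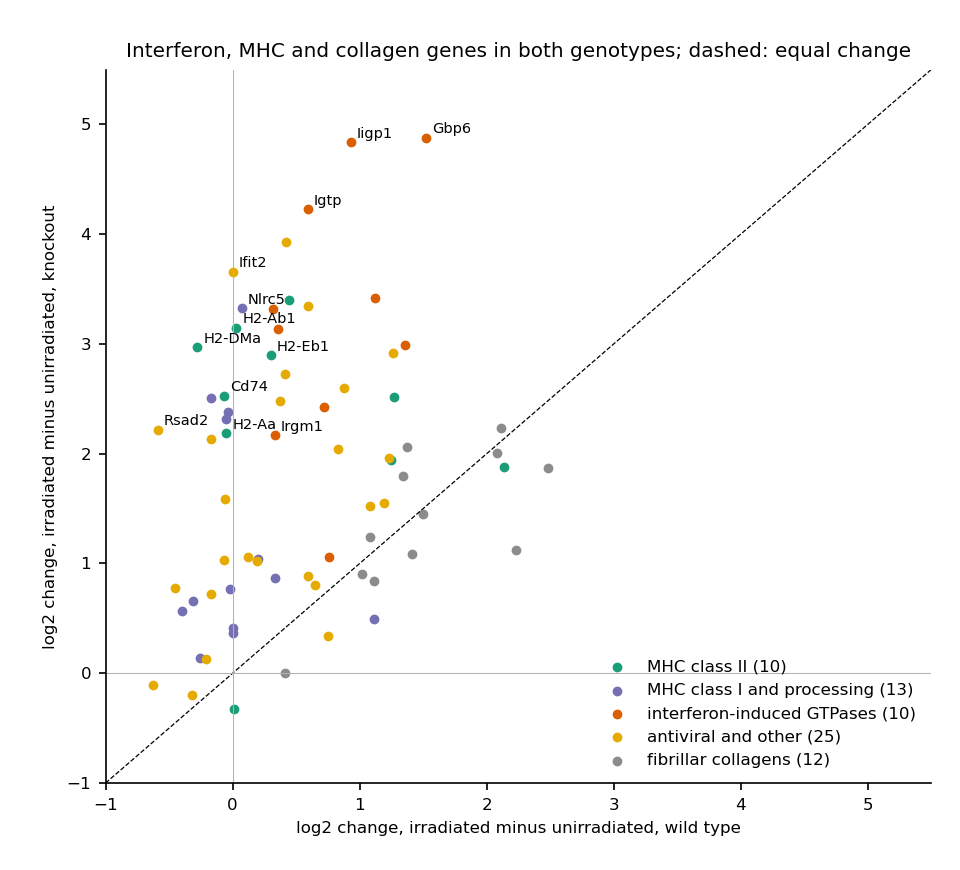
Change after irradiation in the knockout (y axis, log2 units) against the change in wild type (x axis, log2 units) for 70 tested genes of MHC, interferon and fibrillar collagen lists, with the dashed line at equal change and names at genes whose difference was called. Most interferon and MHC class II genes lie above the line, near 0 on the x axis, and the collagens lie around the line.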

How the data were processed

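RNA of distal colorectum from 10 mice was hybridised to Affymetrix Mouse430_2 arrays, 1 per mouse. The values are log2 MAS5 signals as deposited by the authors, per the submitters' processing notes. Their MAS5 release is not named in the labels. Each array had been scaled by the authors to a trimmed mean of 500 on the linear scale, found from the values. Of 45101 probe sets, 34945 named 1 gene, and the brightest stood for each of 18193 genes. The 12568 genes that exceeded the median of their array in 2 or more samples were fitted with limma 3.58.1 in R 4.3.3: 4 group means over 10 arrays, a mean-dependent prior and Benjamini-Hochberg adjustment at 0.05. MAS5 gives low signals a wide spread, which inflates folds from dim levels, and the number of arrays limits the precision. No value column lacked a sample.

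On simulated data for the knockout comparison (12568 genes), changes of 1, 2 and 3 log2 units were given to 67, 67 and 66 genes. Of these, 53.7%, 82.1% and 93.9% respectively were found (36, 55 and 62 genes), beside 13 false calls. The simulated noise was independent between genes and arrays, and far fewer genes changed than were called in the data. The simulation therefore gives no rate of false calls for the data.

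The comparison, the lists and the rule for named genes were chosen with earlier results of these data known. Totals over several lists count a gene once for each list that holds it. The rule took the largest and best-supported changes of all genes, the best-supported and the least-changed members of each list, and the best-supported differences from wild type. Other genes named, such as Krt14, Muc2, Lgr5 and Per2, were added for their known roles after their values were seen. Alternatives covered scaling, pseudocounts, the dim-gene filter, the model, the probe-set rule, a sex covariate and leaving out each array. Promoter windows came from RefSeq (GRCm38.p6).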

Additional observations from a re-analysis of the deposited data

Results flagged for a closer look

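The change after irradiation differed between knockout and wild type in 26 genes, by the test of the difference itself (limma over all 10 arrays, adjusted p under 0.05). Differences are knockout change minus wild-type change in log2 units. Among MHC class II genes these were H2-Eb1 (2.59), Cd74 (2.60), H2-Ab1 (3.13), H2-DMa (3.25) and H2-Aa (2.24). Among interferon-induced genes they were Iigp1 (3.90), Gbp6 (3.36), Igtp (3.64), Irgm1 (1.83), Ifit2 (3.66), Rsad2 (2.80), Nlrc5 (3.26) and the chemokine Cxcl9 (3.41). The others above wild type were Ccl8 (1.76), Pla2g2a (3.62), Hal (5.62), Tnfrsf1b (1.88), Aprt (1.18), Plet1 (6.06), Ly6m (3.51), Clca4b (3.12) and Mfsd2a (3.84). Below wild type were Car3 (-5.32), Ttr (-1.55), Pdcd4 (-1.36) and Slc35e3 (-1.37). Sex pattern and irradiation cannot be told apart within wild type.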

How the results depend on the processing

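No called change of a gene named by the rule reversed its direction under any alternative run. Most runs could not have reversed any. The called genes separate the groups, leaving out an array keeps that order, and filters do not alter a change. Leaving out 1 array at a time gave 1189 to 3596 calls in the knockout (817 to 2033 higher, 372 to 1563 lower) and 14 to 35 differences from wild type (11 to 29 above, 1 to 7 below). Array weights gave 1879 lower calls, every probe set 4499 calls (1967 lower), a 2-fold minimum 386 (363 higher, 23 lower) and the sex covariate 1706 (1114 higher, 592 lower). Same-numbered arrays deviated together at correlations of 0.09 and 0.16, so the numbers were not taken as pairs, and the replicate block gave 2075 calls (701 lower). For the difference from wild type, a pseudocount of 64 gave 16 (13 above), no trend 10 (9 above, 1 below), every probe set 42 (11 below), a 2-fold minimum 3 (2 above, 1 below), the replicate block 3 (2 above, 1 below), the sex covariate 4 (3 above, 1 below) and centring 1 below. The causes were not tested. The sex covariate rests on irradiated knockout replicate 1 against replicates 2 and 3, so it also takes up the deviation of that array. Centring each array on its median moved the median of all genes from 0.01 to -0.11. Quantile normalization gave 3023 calls in the knockout, of which 2840 were among the 2957. By list, the sex covariate gave 2 rises against 7 among squamous factors, 4 falls against 10 among intestinal factors, 2 against 7 among junction genes and 3 against 6 among goblet cell genes, and 2 rises against 5 each among TGF-beta genes and p53 targets, 9 against 14 among blood vessel genes and 4 against 7 among arginine genes.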
